A study of Homo sapiens with 8 samples.

Results

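Mivebresib, an inhibitor of the BET bromodomain proteins, was compared directly with romidepsin, an inhibitor of class I histone deacetylases (HDACs), in MP38 cells. The comparison used the 2 libraries of each drug, 4 of the 8 libraries in the series, and all genes of the count table. Of 35238 gene symbols, 15085 passed the filter on low counts and were tested. MP38 is a BAP1-mutant uveal melanoma cell line, derived from a tumour of the melanocytes of the eye. Cells were treated for 24 h with 1200 nM mivebresib or 40 nM romidepsin in 0.1% DMSO, and the control cells received 0.1% DMSO alone. Each library came from a separate well of this 1 line, so p-values measure the spread between wells. The concentrations differed between the drugs, so compound and dose cannot be told apart. The 2 control libraries told whether a gene had risen or fallen from the untreated level. The 2 libraries of the remaining group were treated with 40 nM of the HDAC inhibitor quisinostat. They entered the filter on low counts, the scaling and the estimate of the spread, and were not themselves compared.

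BET proteins bind acetylated lysines on histones and recruit the elongation factor P-TEFb, which releases paused RNA polymerase II. HDACs remove acetyl groups from histones and other proteins, and class I enzymes act mainly within nuclear corepressor complexes. BET inhibitors therefore displace readers of acetylation, whereas HDAC inhibitors raise acetylation itself. In melanocytes, MITF and SOX10 drive the pigment programme.

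Total counts lay between 28483235 and 29359024 per library, and the wells of each drug differed beyond counting noise, with chi-square values per degree of freedom of 9.521 for mivebresib and 9.525 for romidepsin. The control wells differed more, at 58.15, and every rise or fall from control rests on them. The melanocytic markers TYRP1, PMEL, MITF, MLANA and SOX10 were present in every library, whereas DCT was at or near 0. The summed level of the 7 melanocytic markers was 3700 and 3770 CPM (counts per unit of sequencing depth, scaled by TMM factors) with mivebresib and 5020 and 4740 with romidepsin. In the control it was 4190 and 5450, a range that holds the romidepsin values. TYRP1 made up most of this sum, at 3070 and 3160 CPM with mivebresib and 3810 and 3540 with romidepsin. Its control wells, at 2980 and 4110 CPM, span the wells of both drugs. Of the 17 markers of fibroblasts, immune cells, endothelium and epithelium, 4 passed the filter. CD3E, CDH5 and KRT5 were at 0 in both drug groups and the control. COL1A1 (log2 difference -1.66) and KDR (-1.63), the 2 that differed, were both higher with romidepsin and stayed under 5 CPM in each library. These are bulk samples, so fewer cells of a kind and less RNA per cell cannot be told apart.

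Many genes differed between the drugs. With both thresholds, an edgeR adjusted p under 0.05 and a log2 difference above 1.5 in size, 380 genes were higher with mivebresib, 2.52% of those tested, and 1011 were higher with romidepsin, 6.7%. By adjusted p alone the counts were nearly balanced, with 3576 genes (23.7%) higher with mivebresib and 3796 (25.2%) higher with romidepsin. Romidepsin held 72.7% of the called genes, and its share was 75.6% among genes under a mean log2 CPM of 0 and 64.7% among those of at least 6. The median log2 difference over all tested genes was 0.01. Over log2 CPM, a mivebresib and a romidepsin library lay 112.3 to 114.3 apart, against 48.16 between the mivebresib wells, 44.36 between the romidepsin wells and 57.62 between the control wells. Mivebresib libraries lay 109.5 to 113.7 from control and romidepsin libraries 82.67 to 94.16. The gene lists described next were read against the shares over all tested genes, 23.7% higher with mivebresib and 25.2% higher with romidepsin.

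**Figure D1:**
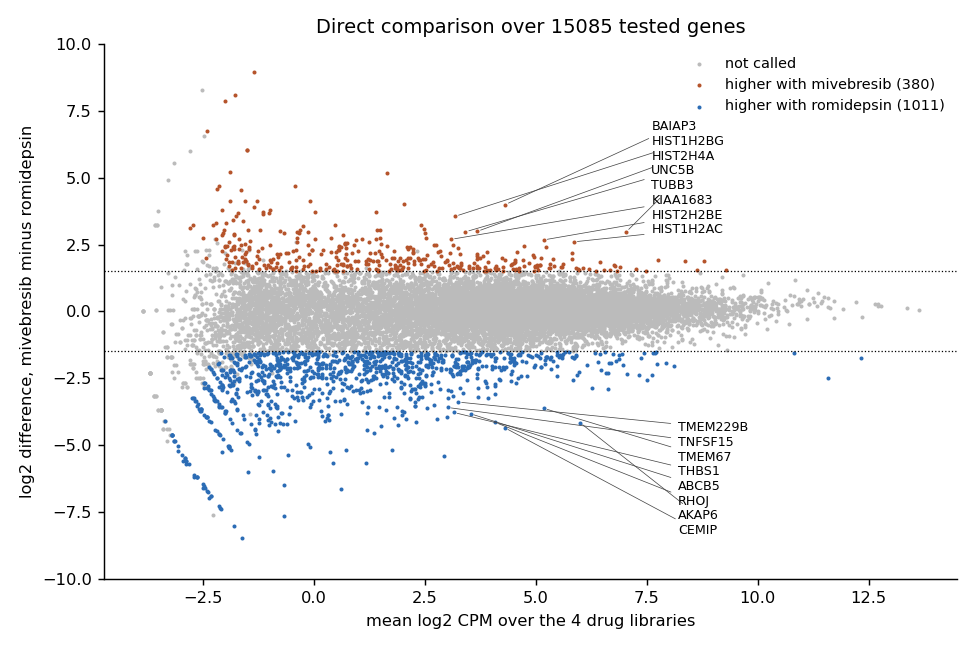
Log2 difference between mivebresib and romidepsin (y axis) against the mean log2 CPM over the 4 drug libraries (x axis), 1 point per tested gene, with dotted lines at the threshold of 1.5. The 380 genes called higher with mivebresib and the 1011 called higher with romidepsin are coloured, and the 8 genes with the largest differences each way at a mean log2 CPM of at least 3 are named.

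BAIAP3 (chr16:1333601-1349441, hg38), which encodes a Munc13-related protein of vesicle exocytosis, showed the largest difference towards mivebresib among well expressed genes. It measured 82.6 and 74.6 CPM with mivebresib, 5.53 and 4.34 with romidepsin and 4.43 and 5.30 in the control. The mivebresib wells stood far above the others, and the romidepsin and control wells overlapped. The log2 difference was 3.99 ± 0.14 (SE, n = 2 per group; edgeR adjusted p = 1.1e-06), or 15.9-fold. TUBB3, a neuronal beta-tubulin, measured 386 and 348 CPM with mivebresib, 45.9 and 47.6 with romidepsin and 80.5 and 76.3 in the control. It rose with one drug and fell with the other, and the direct log2 difference was 2.97 ± 0.10. UNC5B, a netrin receptor, differed by 2.98 ± 0.16 and KIAA1683 by 2.69 ± 0.14. The other 4 genes were histone genes.

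The 8 genes with the largest differences towards romidepsin all fell with mivebresib from control. CEMIP (chr15:80779343-80951776), a hyaluronan-degrading factor, measured 4.61 and 4.03 CPM with mivebresib, 94.4 and 82.0 with romidepsin and 77.4 and 115 in the control. Romidepsin wells lay within the range of the control wells, and the mivebresib wells lay below both. The direct log2 difference was -4.35 ± 0.21 (edgeR adjusted p = 3.4e-06). AKAP6, a scaffold for protein kinase A at the nuclear envelope, measured 14.1 and 15.9 CPM with mivebresib against 274 and 262 with romidepsin. It fell with mivebresib by 3.54 and rose with romidepsin by 0.62 on the log2 scale. RHOJ, a small GTPase, differed by -4.15 ± 0.13, ABCB5, a transporter of pigment cells, by -3.83 ± 0.12, and THBS1, the matrix protein thrombospondin, by -3.78 ± 0.22. TMEM67, TNFSF15 and TMEM229B, which encode a ciliary membrane protein, a TNF family cytokine and a transmembrane protein, differed by -3.63, -3.59 and -3.39.

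**Figure D2:**
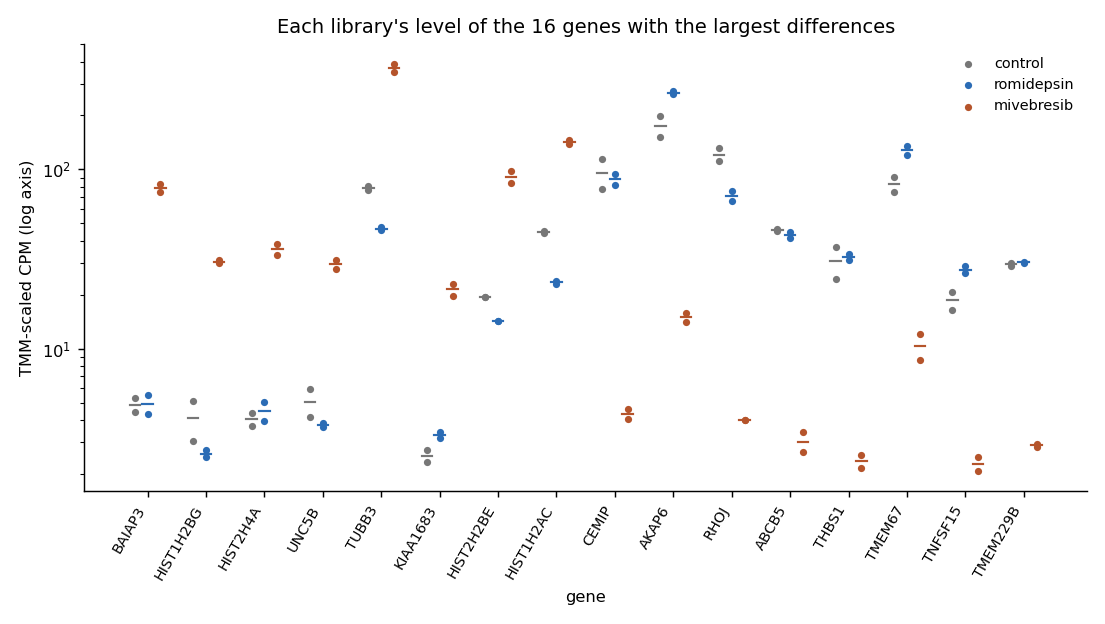
TMM-scaled CPM on a log axis for the 8 genes with the largest differences each way at a mean log2 CPM of at least 3, 1 point per library and a short bar at each group mean. The mivebresib wells stand apart from the romidepsin wells for every gene, and the romidepsin wells lie close to the control for genes such as BAIAP3 (5.53 and 4.34 against 4.43 and 5.30) and CEMIP.

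The control libraries were used to sort genes by which drug's change from control passed the test. Against control, 3342 genes (22.2%) rose and 3628 (24.1%) fell with mivebresib, and 2293 (15.2%) rose and 2377 (15.8%) fell with romidepsin, at an adjusted p below 0.05. Both contrasts share the 2 control wells, so their values are set side by side only. Of the 380 genes called higher with mivebresib, 202 rose with mivebresib without passing the test for romidepsin, 82 rose with mivebresib and fell with romidepsin, 30 rose with both, 24 fell with romidepsin alone and 42 passed neither test. Of the 1011 called higher with romidepsin, 395 fell with mivebresib alone, 222 fell with mivebresib and rose with romidepsin, 219 rose with romidepsin alone, 61 fell with both, 18 rose with both and 96 passed neither test.

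**Figure D3:**
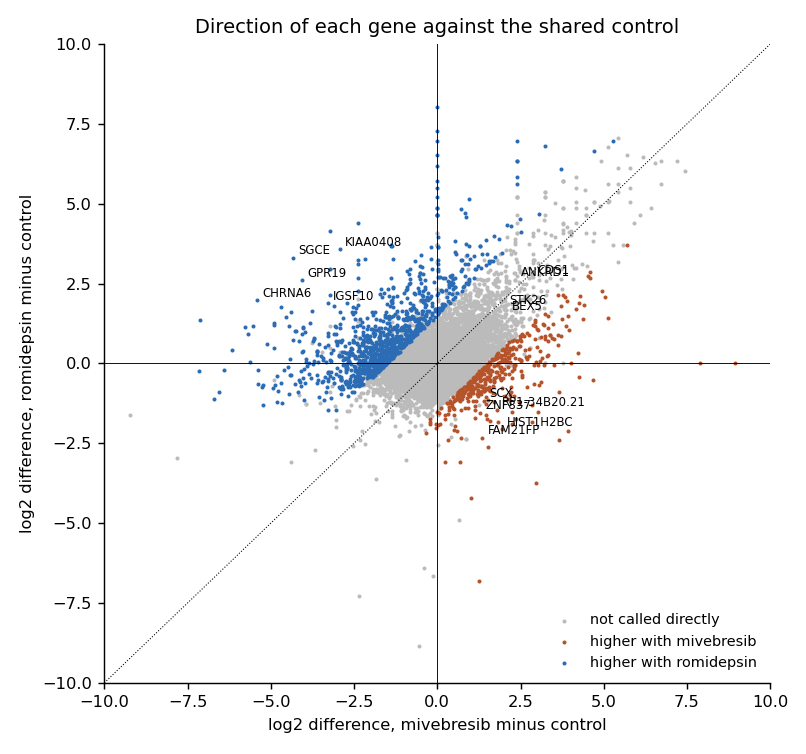
Log2 difference from control with mivebresib (x axis) and with romidepsin (y axis), 1 point per tested gene, coloured by the direct call, with the line of equal change dotted. Both axes share the control libraries, so the trend along the line is no result. The 379 genes that fell with mivebresib and rose with romidepsin lie to the upper left, and the 317 that did the reverse to the lower right.

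Over all tested genes, 379 fell with mivebresib and rose with romidepsin, and this count was 196 without romidepsin replicate 1 and 222 without romidepsin replicate 2. GPR19, an orphan receptor, was among the 5 with the largest opposite changes. It measured 0.0366 and 0.216 CPM with mivebresib, 14.3 and 12.2 with romidepsin and 1.98 and 2.37 in the control, so the groups did not overlap. The direct log2 difference was -6.66 ± 0.34, on 1 and 6 counts with mivebresib. SGCE, which encodes epsilon-sarcoglycan, had 1 count in the pooled mivebresib wells against 262 with romidepsin, a ratio of 248 with a 95% counting interval of 44.2 to 9850. KIAA0408, with 2 counts against 214, had a ratio of 101 (27.7 to 843), and the immunoglobulin superfamily gene IGSF10, with 1 against 47, a ratio of 44.6 (7.62 to 1800). The nicotinic receptor subunit gene CHRNA6 had no count with mivebresib and was at least 6.64-fold higher with romidepsin, against a floor of 3 counts per library.

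A further 317 genes rose with mivebresib and fell with romidepsin. Leaving out any 1 treated library lowered this count, to 129 and 141 without romidepsin replicates 1 and 2, 186 and 202 without mivebresib replicates 1 and 2, and 207 and 206 without quisinostat replicates 1 and 2. HIST1H2BC, which encodes a histone H2B, measured 15.6 and 15.9 CPM with mivebresib, 1.06 and 0.895 with romidepsin and 4.25 and 3.98 in the control. The 3 groups were separate, with the control between the drugs, and the direct log2 difference was 3.998 ± 0.21 (edgeR adjusted p = 4.5e-06). ZNF837, a zinc finger gene, differed by 2.84 ± 0.26, SCX, a tendon transcription factor, by 2.56 ± 0.28, the WASH complex pseudogene FAM21FP by 3.68 ± 0.48 and the unnamed transcript RP1-34B20.21 by 3.23 ± 0.30.

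Beyond a log2 difference of 1.5 from control, at an adjusted p below 0.05, 598 genes (3.96%) rose with mivebresib and 569 (3.77%) with romidepsin. Both drugs raised 186 genes this far. The drugs differed at an adjusted p below 0.05 for 68 of these, 32 higher with mivebresib and 36 higher with romidepsin. For 8 of the 186 the 95% interval of the direct difference lay within 0.5 of 0. ANKRD1, a muscle and YAP-responsive ankyrin protein, rose by 2.35 with mivebresib and 2.61 with romidepsin, with a direct interval of -0.46 to -0.07. STK26, a kinase of the Golgi, had an interval of 0.03 to 0.48 (edgeR adjusted p = 0.064), BEX5 one of 0.28 to 0.74, and CDS1, which makes CDP-diacylglycerol, one of -0.08 to 0.40. Falls beyond 1.5 numbered 657 (4.36%) with mivebresib and 47 (0.312%) with romidepsin, so few could be shared. The 4 genes that fell this far with both drugs were ANK1, C7orf55-LUC7L2, NHLRC4 and PRIMA1. Each was under 3 CPM in every control well except C7orf55-LUC7L2, at 6.55 and 5.59.

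Most tested histone genes were higher with mivebresib. Core and linker histones package DNA, and most of their genes lie in clusters and are transcribed in S phase. Of 100 histone symbols counted, 51 were tested, and 40 were higher with mivebresib, 26 of them beyond 1.5, against 1 higher with romidepsin. The median log2 difference was 1.66, beside 0.01 over all tested genes, also with the 3 members at the floor in a drug group set to their bounds. Those 3 passed the filter only through other groups, so their direction is no result. From control, 36 rose with mivebresib and 16 fell with romidepsin, with medians of 1.18 and -0.37, beside 22.2% and 15.8% of all tested genes. The exception was H2AFY2, a macroH2A variant, with under 1 CPM in every library.

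HIST1H2BG, an H2B gene, measured 31.1 and 30.0 CPM with mivebresib, 2.47 and 2.72 with romidepsin and 5.10 and 3.07 in the control. The mivebresib wells stood above all others, and the romidepsin wells lay just below the lower control well. The direct log2 difference was 3.55 ± 0.20 (edgeR adjusted p = 5.5e-06), or 11.8-fold. HIST1H2AC, an H2A gene, measured 146 and 138 CPM with mivebresib, 23.0 and 23.8 with romidepsin and 45.3 and 44.1 in the control. It rose with mivebresib and fell with romidepsin, for a direct difference of 2.60 ± 0.08. HIST2H2BE differed by 2.67, HIST2H4A by 2.99, HIST1H2BE by 3.08 and HIST1H2AG by 2.21. H1F0, a linker histone gene outside the clusters, rose with both drugs, by 0.98 and 0.97 from control, and its direct difference of 0.02 had an interval of -0.16 to 0.20. Histone genes are near copies of each other, and HIST2H3A and HIST2H3C carried identical counts, so single members are uncertain. How mRNA was selected is not given in the sources used here, and many histone transcripts lack a poly(A) tail.

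Some promoters of the histone genes held sequence elements known for this family, and 3 promoters of genes raised by mivebresib are printed to show them. Sequences are from RefSeq (GRCh38.p14) and give the 250 bases before the annotated start, 5′ to 3′ on the gene's strand. Capitals mark ATTTGCAT, the octamer bound by OCT1, and TATAAA, the TATA box, on either strand. The windows are chr6:26216689-26216938 (minus strand) for HIST1H2BG, chr6:26123922-26124171 (plus strand) for HIST1H2AC and chr17:45148225-45148474 (plus strand) for HEXIM1.
HIST1H2BG: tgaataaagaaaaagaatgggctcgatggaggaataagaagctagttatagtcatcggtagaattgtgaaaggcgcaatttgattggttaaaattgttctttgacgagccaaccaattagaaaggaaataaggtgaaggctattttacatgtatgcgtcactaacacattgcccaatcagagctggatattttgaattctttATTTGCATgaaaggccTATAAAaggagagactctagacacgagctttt
HIST1H2AC: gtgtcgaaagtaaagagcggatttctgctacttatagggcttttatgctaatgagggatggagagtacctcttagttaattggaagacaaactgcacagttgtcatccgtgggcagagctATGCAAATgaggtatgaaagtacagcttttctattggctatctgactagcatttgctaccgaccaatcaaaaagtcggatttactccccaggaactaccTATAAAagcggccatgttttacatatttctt
HEXIM1: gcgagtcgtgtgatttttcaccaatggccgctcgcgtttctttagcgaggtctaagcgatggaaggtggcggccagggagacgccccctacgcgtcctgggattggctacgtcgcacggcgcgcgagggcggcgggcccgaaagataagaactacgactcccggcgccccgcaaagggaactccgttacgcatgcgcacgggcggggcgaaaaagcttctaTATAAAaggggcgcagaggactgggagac
In HIST1H2BG the octamer began 48 and the TATA box 32 bases before the start. HIST1H2AC held the octamer on the opposite strand and a TATA box 31 bases before its start. Its window is shared with HIST1H2BC, which starts 245 bases away in the other direction, and both genes of this divergent pair were higher with mivebresib. Promoters were matched for 42 of the 51 tested histone genes. TATAAA stood in 23 (54.8%) and ATTTGCAT in 14 (33.3%) of them, against 5.59% and 1.35% of the 11178 promoters of all tested genes. CCAAT, bound by NF-Y, stood in 32 (76.2%), against 34.9%. The reference promoters cover 74.1% of the tested genes, under 80%, so the shares stand side by side as a description only. These are matches of letters, and a match was not tested for binding. Over the called genes, promoters were matched for 264 of 380 and 699 of 1011, under 80% of each set, so comparing their base composition was void.

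HEXIM1, MEPCE and BRD2, of the BET and P-TEFb system, were higher with mivebresib. Of 21 tested BET and P-TEFb genes, 8 were higher with mivebresib and 3 (HEXIM2, AFF1 and ELL2) with romidepsin, beside 23.7% and 25.2% of all tested genes, with a median of 0.13. HEXIM1, the inhibitor that holds P-TEFb inactive in the 7SK particle, measured 268 and 255 CPM with mivebresib, 85.0 and 91.0 with romidepsin and 110 and 113 in the control. The groups did not overlap, with the control between the drugs. The direct log2 difference was 1.57 ± 0.08 (edgeR adjusted p = 4.5e-06). Its printed promoter held a TATA box 29 bases before the start and no octamer. MEPCE, which caps 7SK RNA, measured 116 and 106 CPM with mivebresib, 28.5 and 28.5 with romidepsin and 94.9 and 93.7 in the control. Here the difference of 1.96 ± 0.08 lay mostly in the fall with romidepsin, by 1.73. BRD2 differed by 1.23 ± 0.08 and BRD3 by 0.59 ± 0.10.

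Of 32 tested class I HDAC and corepressor genes, 7 were higher with mivebresib and 9 with romidepsin, shares near the 23.7% and 25.2% of all tested genes, with a median of -0.04. HDAC1 and HDAC2, the catalytic subunits of most class I complexes, had direct intervals of -0.20 to 0.18 and -0.22 to 0.15. HDAC3 measured 111 and 115 CPM with mivebresib, 69.6 and 72.2 with romidepsin and 71.4 and 57.2 in the control. It was raised by mivebresib alone and differed by 0.67 ± 0.10. HDAC8 was lower with mivebresib, with a direct log2 difference of -1.10 ± 0.12, and CHD3, a NuRD remodeller, differed by -1.04 ± 0.09. Of 7 class II and IV HDACs, HDAC11 was higher with mivebresib (0.72) and HDAC4, HDAC9 and HDAC7 with romidepsin (-1.07, -0.45 and -0.21).

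MYC, a frequent target of BET inhibitors, was not lowered here. It measured 176 and 173 CPM with mivebresib, 118 and 121 with romidepsin and 102 and 101 in the control. All drug wells lay above the control wells, and the direct log2 difference was 0.54 ± 0.07 (edgeR adjusted p = 0.00034). Of 13 tested genes of the MYC and MXD network, MYC, MYCN, MXD1, MXD3 and MXD4 were higher with mivebresib and MYCL and MLX with romidepsin. MXD4, a MAX partner that opposes MYC, differed by 1.38 ± 0.11. Of 40 ribosome biogenesis genes, 13 were higher with mivebresib and 4 with romidepsin, led by NOP56 (0.85), BOP1 (0.76), NOC4L (0.81) and NCL (0.80).

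Many DNA replication genes fell with each drug. Of 53 tested, 31 fell with mivebresib and 46 with romidepsin, beside 24.1% and 15.8% of all tested genes, with medians of -0.49 and -0.75. In the direct comparison 28 were higher with mivebresib and 3 (GINS1, POLA1 and E2F2) with romidepsin, with a median of 0.31. MCM4, a subunit of the replicative helicase, measured 204 and 207 CPM with mivebresib, 91.0 and 94.3 with romidepsin and 217 and 242 in the control. The mivebresib wells lay near the control and the romidepsin wells far below, for a difference of 1.15 ± 0.09. CLSPN, which carries the replication checkpoint signal, differed by 1.41, MCM7 by 1.00 and the G1/S cyclin CCNE2 by 1.47. E2F2, an activator of the same genes, ran the other way, with 3.66 and 3.49 CPM with mivebresib, 8.79 and 8.95 with romidepsin and 21.6 and 21.8 in the control.

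Most mitosis genes fell with each drug too. Of 49 tested, 41 fell with mivebresib and 44 with romidepsin, beside 24.1% and 15.8% of all tested genes. The median change from control was -0.70 for each drug. Directly, 7 were higher with mivebresib and 12 with romidepsin, below the 23.7% and 25.2% of all tested genes, with a median of 0.01. The mitotic kinase AURKA was lower with mivebresib (-0.79 ± 0.09), and the spindle checkpoint genes BUB1 (0.67), MAD2L1 (0.63) and CASC5 (1.00) were lower with romidepsin. CDKN1A, the CDK inhibitor p21, measured 289 and 261 CPM with mivebresib, 309 and 336 with romidepsin and 312 and 271 in the control. Its direct log2 difference of -0.23 had an interval of -0.48 to 0.02. CDK2 was lower with mivebresib (-1.15 ± 0.09), and CCND1, cyclin D1, was higher (0.63 ± 0.09).

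Among 24 tested p53 targets, 8 were higher with mivebresib and 9 with romidepsin, beside 23.7% and 25.2% of all tested genes. GDF15, a stress cytokine, measured 58.8 and 59.1 CPM with mivebresib, 311 and 292 with romidepsin and 102 and 133 in the control. It fell with one drug and rose with the other, for a direct difference of -2.35 ± 0.13. BBC3, the pro-death protein PUMA, differed by 1.97 ± 0.20, GADD45A, a growth arrest gene, by 1.35 and SESN2 by 0.88. In the BCL2 family, 6 of 17 were higher with mivebresib and 5 with romidepsin (BCL2, BCL2L2, BAK1, BAD and BCL2L13), beside the same 23.7% and 25.2%. BCL2, which blocks cell death, measured 33.1 and 34.4 CPM with mivebresib against 95.7 and 94.2 with romidepsin, a difference of -1.49 ± 0.08. BCL2L11, the pro-death protein BIM, rose with both and was higher with mivebresib by 0.96 ± 0.10. Of 25 genes of the integrated stress and unfolded protein responses, 14 were higher with mivebresib and 2 (CHAC1 and VLDLR) with romidepsin, led by ASNS, asparagine synthetase, at 1.61 ± 0.08.

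Melanocytic genes were lower with mivebresib. Of 23 tested, 18 were higher with romidepsin, 9 of them beyond 1.5, and 2 (PAX3 and TFAP2A) with mivebresib, with a median of -1.12. From control, 17 fell with mivebresib and 1 with romidepsin, beside 24.1% and 15.8% of all tested genes. MITF, the master regulator of the lineage, measured 124 and 129 CPM with mivebresib, 293 and 308 with romidepsin and 351 and 349 in the control. The mivebresib wells lay well below all others, and the direct log2 difference was -1.25 ± 0.08 (edgeR adjusted p = 8.2e-06). RAB27A, which moves melanosomes to the cell edge, measured 19.2 and 19.6 CPM with mivebresib, 97.3 and 108 with romidepsin and 93.3 and 81.1 in the control, a difference of -2.40 ± 0.10. SLC24A5, a melanosomal ion exchanger, differed by -2.69 ± 0.15.

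Schwann and glial genes, which share the neural crest origin of melanocytes, showed a like pattern in the direct comparison. Of 12 tested, 7 were higher with romidepsin and 2 (MBP and SOX8) with mivebresib, with a median of -1.33. From control, 7 fell with mivebresib, beside 24.1% of all tested genes. With romidepsin 3 rose and 2 fell, beside 15.2% and 15.8%. PMP22, a myelin protein, differed by -1.66, ERBB3, a neuregulin receptor, by -2.54 and EGR2, a Schwann cell factor, by -3.34. EGR2 rose by 2.52 with romidepsin. Among 24 neural crest factors, SOX4 (1.36), ID2 (1.23), ID1 and FOXD1 were higher with mivebresib and 10 with romidepsin, ZEB2 (-0.70) and ETS1 (-0.61) among them.

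Of 65 tested neuronal and synaptic genes, 12 were higher with mivebresib and 24 with romidepsin, beside 23.7% and 25.2% of all tested genes. The median was -0.33, or -0.31 with the 5 members at the floor set to their bounds. From control 25 rose with mivebresib and 29 with romidepsin, beside 22.2% and 15.2% of all tested genes. MAP2, a dendritic microtubule protein, measured 108 and 119 CPM with mivebresib, 43.8 and 39.1 with romidepsin and 21.96 and 22.39 in the control. Both drugs raised it, mivebresib further, by 1.45 ± 0.09. SCG5, a chaperone of secretory granules, had a direct difference of -4.54, and GABBR2, a GABA receptor subunit, differed by -2.29. SERPINI1, the neuronal inhibitor neuroserpin, measured 7.06 and 7.80 CPM with mivebresib, 0.927 and 0.861 with romidepsin and 0.354 and 0.840 in the control. It was higher with mivebresib by 3.05 ± 0.26, and its rise with romidepsin, 0.59, did not pass the test.

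Most tested inflammatory genes were lower with mivebresib than with romidepsin. Of 29 tested inflammatory genes, 20 were higher with romidepsin, 12 beyond 1.5, beside 25.2% and 6.7% of all tested genes. Only 2 (NFKBIA, an inhibitor of NF-kB, and RELB, a subunit) were higher with mivebresib, beside 23.7%. The median was -1.16, also with the 4 members at the floor in a drug group set to their bounds. From control, 11 fell and 1 rose with mivebresib, beside 24.1% and 22.2% of all tested genes. With romidepsin 8 rose and 4 fell, beside 15.2% and 15.8%. CCL2, a chemokine that draws monocytes, measured 0.0732 and 0.252 CPM with mivebresib, 8.79 and 8.09 with romidepsin and 9.03 and 7.45 in the control. The romidepsin wells lay within the control range, and the mivebresib wells held 2 and 7 counts. The direct log2 difference was -5.66 ± 0.33 (edgeR adjusted p = 5.9e-06). IL6 measured 0.256 and 0.216 CPM with mivebresib, 8.17 and 9.44 with romidepsin and 4.82 and 3.10 in the control, and moved in opposite directions, with a direct difference of -5.20 ± 0.32. CSF1, a macrophage growth factor, differed by -2.58 ± 0.15 and the cytokine gene IL24 by -2.76 ± 0.18.

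Of 46 tested interferon-stimulated genes, 29 were higher with romidepsin, 12 beyond 1.5, and 2 (the factors IRF7, at 1.74, and IRF9, at 0.71) with mivebresib, with a median of -1.05. From control 28 fell with mivebresib, and 10 rose with romidepsin, beside 24.1% and 15.2% of all tested genes. GBP3, an interferon-induced GTPase (chr1:89006666-89022894), measured 0.658 and 0.539 CPM with mivebresib, 11.8 and 11.9 with romidepsin and 3.33 and 3.65 in the control. The 3 groups were separate, and the direct log2 difference was -4.30 ± 0.15. TRIM22 differed by -3.55, ISG20 by -1.997 and GBP2 by -2.69. GBP genes lie side by side and are alike in sequence, so reads may be shared among them. In the MHC list 8 of 22 were higher with romidepsin and HLA-C, HLA-E and B2M with mivebresib, by 0.35, 0.45 and 0.49. PSMB8, an immunoproteasome subunit, differed by -2.40 ± 0.17.

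HOX genes, which encode position along the body axis, were called only towards romidepsin. Of 39 counted, 26 were tested, and 15 were higher with romidepsin, 13 beyond 1.5, with none higher with mivebresib at an unadjusted or adjusted p below 0.05. The median was -1.86, or -1.45 with the 6 members at the floor set to their bounds. From control 13 fell with mivebresib, beside 24.1% of all tested genes. With romidepsin 5 rose and 4 fell, beside 15.2% and 15.8%. HOXC10 measured 1.98 and 2.27 CPM with mivebresib, 14.0 and 15.2 with romidepsin and 14.3 and 10.3 in the control, a difference of -2.78 ± 0.18. HOXA13 differed by -1.87 and was raised by romidepsin alone, by 1.54. HOXC13 differed by -2.48 and HOXC6 by -1.89.

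**Figure D4:**
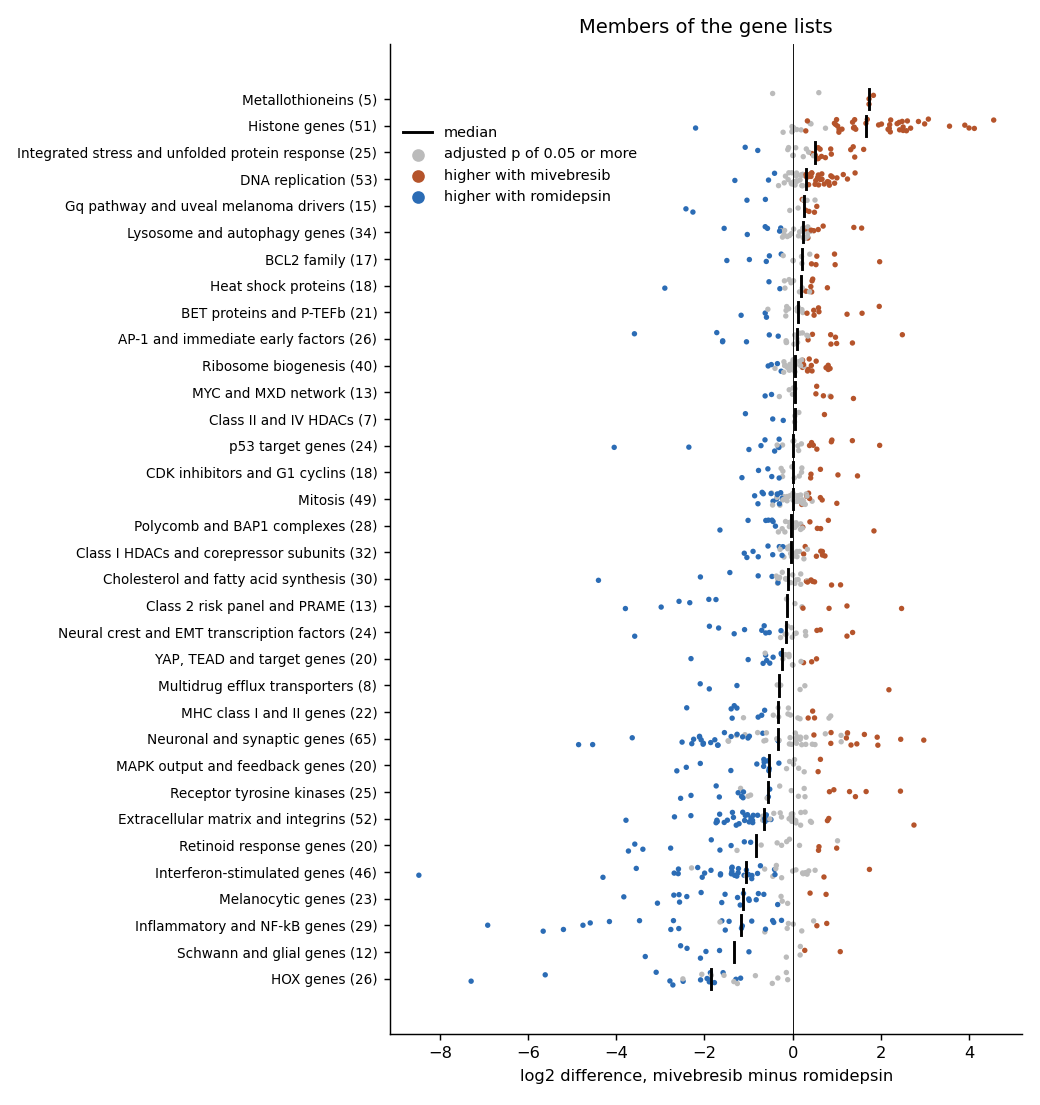
Log2 difference between mivebresib and romidepsin for each tested member of the gene lists, 1 point per gene and a black bar at the list median, with the number tested in brackets. Histone genes sit to the right, with a median of 1.66, and HOX genes to the left, with a median of -1.86.

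Of 52 matrix and integrin genes, 29 were higher with romidepsin and 3 (COL6A1, ITGA3 and MMP1) with mivebresib, with a median of -0.66. TIMP3, an inhibitor of matrix proteases, measured 45.7 and 43.4 CPM with mivebresib, 239 and 203 with romidepsin and 108 and 144 in the control, a difference of -2.31 ± 0.15. ITGA4 differed by -2.68 and SERPINE2 by -1.55. Of 20 MAPK output genes, 12 were higher with romidepsin and SPRY2 and CCND1 with mivebresib, with a median of -0.54. ETV1, an ETS factor, measured 12.5 and 11.7 CPM with mivebresib, 62.3 and 66.3 with romidepsin and 33.1 and 35.2 in the control, a difference of -2.41 ± 0.09, and ETV4 differed by -2.63. Of 20 YAP and TEAD genes, 9 were higher with romidepsin, YAP1 (-1.01) and WWTR1 (-0.67) among them, and AMOTL2, AJUBA and NT5E with mivebresib.

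Of 26 AP-1 and immediate early factors, 8 were higher with mivebresib and 7 with romidepsin, shares near the 23.7% and 25.2% of all tested genes. KLF2 differed by 2.49 ± 0.16, FOS by -1.72 ± 0.10, NR4A1 by -1.59 ± 0.08 and EGR3 by -3.59 ± 0.19. Gq signalling through GNAQ or GNA11 drives most uveal melanomas. Of 15 genes of this pathway, 6 were higher with mivebresib and GNAQ, PLCB4, PRKCE and RASGRP3 with romidepsin, beside the same 23.7% and 25.2%. The median was 0.25. RASGRP3, which links diacylglycerol to RAS, measured 27.7 and 29.7 CPM with mivebresib, 137 and 138 with romidepsin and 138 and 133 in the control, a difference of -2.26 ± 0.08 (edgeR adjusted p = 1.1e-06). PRKCE, a protein kinase C, differed by -2.42 ± 0.09. Romidepsin wells lay at the control level for both genes.

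In the prognostic risk panel with PRAME, 4 of 13 genes (FXR1, ID2, LTA4H and ROBO1) were higher with mivebresib and 6 with romidepsin. The shares over all tested genes were 23.7% and 25.2%. ROBO1, an axon guidance receptor, measured 19.3 and 21.3 CPM with mivebresib, 3.67 and 3.65 with romidepsin and 1.91 and 2.41 in the control, a difference of 2.47 ± 0.13. HTR2B, a serotonin receptor, differed by -2.58, LMCD1, a LIM domain cofactor, by -3.79 and MTUS1 by -1.74. Among 25 receptor tyrosine kinases, 6 were higher with mivebresib, near the 23.7% of all tested genes, and 10 with romidepsin, beside 25.2%. FGFR3 differed by 2.44, EGFR by 1.66 and TYRO3 by -1.24. Of 8 efflux transporters, ABCB1, the drug pump P-glycoprotein, measured 16.9 and 18.9 CPM with mivebresib, 4.64 and 3.24 with romidepsin and 0.673 and 1.17 in the control. Both drugs raised it, and it was higher with mivebresib by 2.18 ± 0.20, while ABCB4, ABCC2 and ABCC3 were higher with romidepsin.

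Among 28 Polycomb and BAP1 complex genes, 6 were higher with mivebresib and 7 with romidepsin, shares near the 23.7% and 25.2% of all tested genes. EZH1, a methyltransferase of PRC2, measured 43.0 and 43.6 CPM with mivebresib, 12.7 and 11.5 with romidepsin and 15.8 and 19.0 in the control, a difference of 1.84 ± 0.11. PHC1, of PRC1, differed by -1.65 and CBX7 by -1.01. Of 5 tested metallothioneins, which bind zinc and copper, MT1E, MT1X and MT2A were higher with mivebresib, by 1.73, 1.83 and 1.73, though these genes are near copies. Of 34 lysosome and autophagy genes, 10 were higher with mivebresib and 6 with romidepsin, with the autophagy receptor SQSTM1 at 1.56 and the regulator TFEB at -1.55. Of 18 heat shock genes, 6 were higher with mivebresib, HSP90AA1 (0.79) among them, and HSPA2 (-2.90), HSPH1 and DNAJB4 with romidepsin. Of 30 lipid synthesis genes, 7 were higher with mivebresib and 6 with romidepsin, again near or below those shares, with STARD4, a cholesterol carrier, at -2.09 and INSIG1 at 1.08. Of 20 retinoid genes, 9 were higher with romidepsin and RXRA, RXRB and NR1H2 with mivebresib, with DHRS3 at -3.40 and ALDH1A3 at -1.85. Among these 20 genes, 4 were at the floor in a drug group.

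The supplement of the study lists genes that HDAC inhibitors raise or lower in other cells. Its direction marks give 79 raised and 101 lowered genes, a split that differs slightly from that in the study's figure legend. The study kept a gene only if every inhibitor it drew on moved it the same way, and romidepsin was among them. The lists are therefore not independent of romidepsin, and its agreement with them is partly built in. Of the 78 tested raised genes, 30 rose with mivebresib and 32 with romidepsin, beside 22.2% and 15.2% of all tested genes, and in the direct comparison 18 were higher with mivebresib and 27 with romidepsin, with a median of -0.09. Of the 100 tested lowered genes, 55 fell with mivebresib and 63 with romidepsin, beside 24.1% and 15.8% of all tested genes. Directly, 25 of them were higher with mivebresib and 21 with romidepsin, near the 23.7% and 25.2% of all tested genes, with a median of 0.02. ST3GAL5, a ganglioside synthase on the first list, measured 5.74 and 6.29 CPM with mivebresib, 25.7 and 28.4 with romidepsin and 12.4 and 13.3 in the control, a difference of -2.17 ± 0.10. GDPD5 differed by 1.58, and KEAP1, of the second list, by 1.12.

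Of the 230 genes named by rule, 32 overlap an exon of another tested gene on the opposite strand, BAIAP3, HIST2H4A, MEPCE, RAB27A, SLC24A5, CCNE2, CDK2 and HTR2B among them. Whether the counting used strand is not given in the sources used here, so their reads may be mixed.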

How the data were processed

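RNA was sequenced from 8 wells of MP38 cells, 2 each for control, quisinostat, mivebresib and romidepsin, as strand-specific mRNA libraries with paired reads. The authors deposited raw counts per gene symbol, without normalization. The submitters' processing notes name hg38, and the aligner, annotation and strand setting of the counting are not given in the sources used here. The authors' log-scaled and quantile-normalized tables were not used. The study compared each drug with control by limma in BioJupies, and the count test was chosen here because raw counts were deposited.

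A single model of all 8 libraries was fitted by edgeR (version 4.0.16, under R 4.3.3). It used TMM factors, the low-count filter filterByExpr with the 4 groups, and quasi-likelihood tests whose p-values were adjusted by Benjamini-Hochberg across 15085 genes. A call needed an adjusted p under 0.05 together with a log2 difference above 1.5 in size. The biological coefficient of variation was 0.0938, and intervals are at 95%. Tests were tried on simulated data first. DESeq2 1.42.0, limma-voom (limma 3.58.1), other scalings and filters, a replicate block and leaving out each library were alternatives. Ratios with 1 to 3 counts in a group have exact binomial intervals, which cover counting error only.

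Members and lists were chosen with earlier results of these data known. The 37 gene lists were described by counts and medians, with no set test. Genes were named by rule: the 8 largest differences each way among called genes at a mean log2 CPM of at least 3, the 5 largest opposite changes each way, the 4 narrowest intervals among genes changed alike, the 4 smallest p in each list, the drug targets and response genes, and members that a count of 5 or fewer calls for. Promoters came from RefSeq GRCh38.p14, matched for 11178 tested genes (74.1%) by symbol or Ensembl gene, and positions from GENCODE. Lists and figures were made with Python 3.11.15, pandas 2.3.3 and matplotlib 3.10.9. Some genes that this rule names are not reported here.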

Additional observations from a re-analysis of the deposited data

How the results depend on the processing

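No gene called in the direct comparison changed sign under DESeq2, limma-voom, other scalings or filters, the replicate block or the fit of only the 4 libraries, and 92.9% to 99.3% of the called genes that each alternative tested were called again. Leaving out a control or quisinostat library kept 94.8% to 99.6%, and leaving out a drug library 81.6% to 84.8%, with 1 gene of opposite sign without romidepsin replicate 1. A filter at a mean CPM of at least 5 tested 10701 genes and called 129 higher with mivebresib and 418 higher with romidepsin, and romidepsin's share was 76.4%. That share was 75.9% with library size alone and 75.2% with upper-quartile factors. Leaving out 1 library at a time, genes that rose with mivebresib and fell with romidepsin numbered 129 to 363 and those that did the reverse 196 to 449, lowest without romidepsin replicate 1 for both; the cause was not tested.

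Nothing in the labels says that the replicate numbers mark a shared batch, and they were not taken to pair the wells. Over 9681 genes, deviations of same-numbered wells correlated at 0.608, 0.471 and 0.353 among control, quisinostat and mivebresib, and at -0.638, -0.45 and -0.346 between romidepsin and these 3 groups. With the replicate block, 375 and 993 genes were called. A crossed pairing with the romidepsin numbers exchanged, chosen after seeing the data, called 378 and 1008 directly, and 584 genes fell with mivebresib and rose with romidepsin while 595 did the reverse.

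Genes with differences near 0 changed sign, and where the sign turned they did not pass the test. H1F0 was at -0.0347 with library size alone, -0.0212 with upper-quartile factors and -0.0138 with a mean CPM of at least 5, and at -0.00673 to 0.0342 leaving out 1 library. Leaving out 1 library, HDAC1 ran from -0.0788 to 0.0582, HDAC2 from -0.09802 to 0.0272, ANK1 from -0.157 to 0.732 and C7orf55-LUC7L2 from -0.925 to 7.936. The last value, without romidepsin replicate 2, passed the test (edgeR adjusted p = 0.00844) and rests on the remaining romidepsin well, which was at 0. For genes with few counts, depth limits precision, as the counting intervals show.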
